A study of Mus musculus with 21 samples.

Results

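Olfactory sensory neurons (OSN) turn the binding of an odorant into a current through a short chain of proteins in their cilia. The odorant receptor activates the G protein Golf, Golf activates an adenylyl cyclase, cyclic AMP opens a cyclic nucleotide-gated channel, and the calcium that enters opens a chloride channel. A phosphodiesterase and an exchanger then remove the cyclic AMP and the calcium. Mature OSN are known for high levels of these components, which immature OSN largely lack. The genes described here are 10 members of this chain, listed by name from knowledge of the pathway: Gnal, Gnb1 and Gng13 (the alpha, beta and gamma subunits of Golf), Adcy3 (the cyclase), Cnga2, Cnga4 and Cngb1 (the channel), Ano2 (the chloride channel), Pde1c (the phosphodiesterase) and Slc24a4 (the exchanger). They are 10 of 23587 genes kept from one deposited table and of 22918 kept from the other, and all 10 were in both tables.

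The cells came from mouse main olfactory epithelium, dissociated and sorted by mCherry. Every mouse carried a tetO construct with mCherry, either tetO-HyperTRIBE_mCherry (HT below) or tetO-Mex3a_HyperTRIBE_mCherry (MexHT below). HyperTRIBE is an RNA-editing domain used to mark the targets of an RNA-binding protein, here Mex3a, and the MexHT mice therefore expressed added Mex3a. No mouse without a HyperTRIBE construct was analysed here. The construct was driven by gg8tTA, active in immature OSN, in 2 MexHT mice. The other mice carried gg8tTA and also OMPtTA, active in mature OSN. The sorted mCherry-positive cells are labelled as immature OSN in the gg8tTA mice and immature and mature OSN in the gg8tTA; OMPtTA mice. The mCherry-negative cells of the same mouse were the internal control. With both drivers there were 6 MexHT OSN, 5 MexHT negative, 3 HT OSN and 3 HT negative libraries, and with gg8tTA alone there were 2 MexHT OSN and 2 MexHT negative libraries. The ages of the mice, their sex and whether animals were pooled are not given in the sources used here.

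The depth of the 21 libraries, recovered from the steps of the deposited values, was 7524256 to 15344179 counts. Mex3a, which checks the labels, was 328 to 1271 TPM in MexHT OSN and 24.0 to 61.5 TPM in HT OSN libraries. In the negative cells with both drivers it was 57.8 to 207 TPM in MexHT and 29.3 to 74.35 TPM in HT libraries. It was 460 and 1632 TPM in gg8 MexHT OSN and 101 to 211 TPM in their negative cells. MexHT OSN replicate 5 had the highest Mex3a with both drivers, and it was the lowest of its 6 libraries for all 10 cascade genes. The mCherry-negative cells of that mouse were also the lowest of their 5 libraries for all 10. HT replicate 3 was the lowest HT library for all 10 genes in both fractions. Negative cells still held many OSN transcripts: Omp, the abundant marker of mature OSN, was 46.9 to 1431 TPM in MexHT negative and 1093 to 2158 TPM in HT negative libraries. In bulk samples such as these, fewer cells of a type and less RNA per cell cannot be told apart.

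Levels are given in TPM, counts scaled for transcript length and to a fixed library total, so that genes can be compared within a library. In HT OSN, the G protein subunits led: Gnb1 averaged 1968 ± 215 TPM, Gnal 1485 ± 387 TPM and Gng13 1301 ± 148 TPM (SD, n = 3). Adcy3 followed with 924 ± 206 TPM, then Cnga2 with 785 ± 236 TPM and Cnga4 with 629 ± 176 TPM (SD, n = 3). The lowest means were those of Ano2 at 375 ± 79.4 TPM, Cngb1 at 333 ± 72.4 TPM, Slc24a4 at 211 ± 39.3 TPM and Pde1c at 145 ± 37.6 TPM (SD, n = 3). In MexHT OSN the order of the first 3 genes by mean was the same, but Cnga2 and Ano2 stood above Adcy3. Adcy3, the fourth of the 10 genes by mean level in HT OSN, was the sixth in MexHT OSN.

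**Figure D1:**
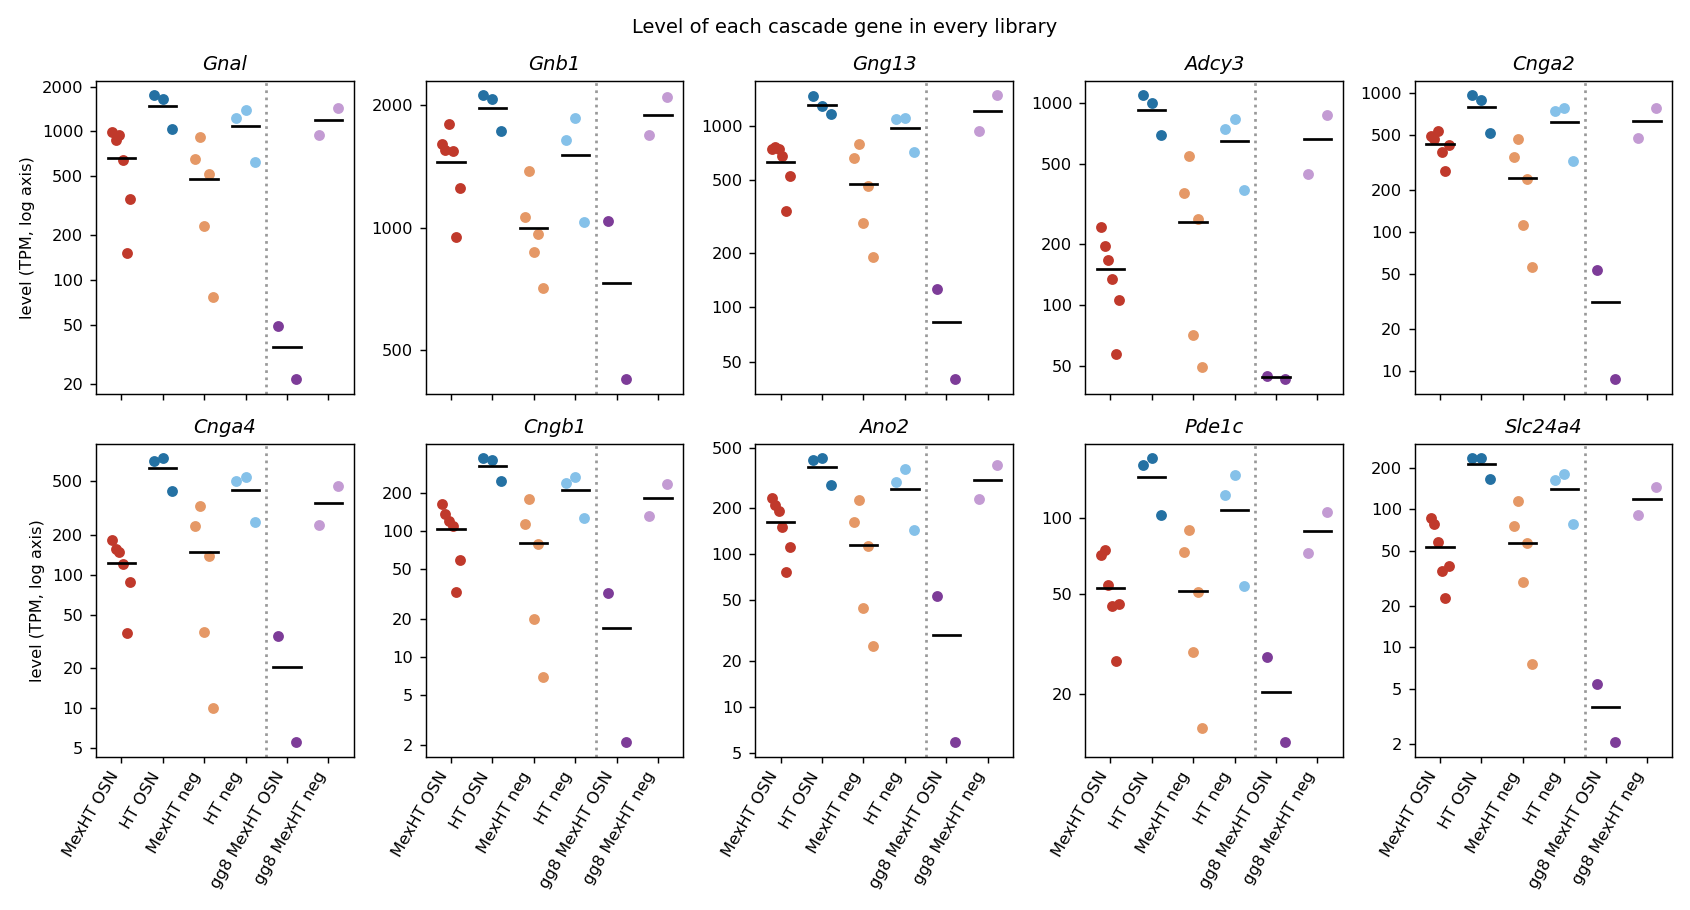
Level of each of the 10 genes in every library, in TPM on a log axis, by group; each dot is a library and each black line the group's mean. The dotted line parts the gg8+OMP libraries (left) from the gg8 libraries (right), whose table was scaled separately. All 3 HT OSN libraries lie above all 6 MexHT OSN libraries for 8 genes, and the gg8 MexHT OSN libraries lie below their negative libraries for all 10.

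The 10 genes moved together across the 17 gg8+OMP libraries. Over their 45 pairs, Pearson's r of log2(TPM + 1) ran from 0.73 to 0.99, with a median of 0.95. These libraries share their scaling to a fixed total and come from 2 sorted fractions, so the correlations are a description. Among 12548 other genes averaging 5 TPM or more (odorant receptors and predicted genes passed over), the 5 most like the members' mean profile were Gadl1 (r = 0.99), Ccdc170 (r = 0.99), Lrguk (r = 0.99), Ttc9 (r = 0.99) and Ccdc33 (r = 0.99). Of the members, Ano2, Gng13 and Cngb1 each had r = 0.99 with that mean, which includes them. Gnb1 (r = 0.90) and Adcy3 (r = 0.93) had the lowest. Omp had r = 0.92 and Gng8, the gamma subunit known from immature OSN, r = -0.30.

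Because the genes moved together, their promoters are shown where they share a short motif. The motif searched was CCCNNGGG, the core of the site known to be bound by the Olf/EBF transcription factors of OSN. It is its own reverse complement, so one search covers both strands. In RefSeq promoters of GRCm38.p6, from 250 bases before to 50 bases after an annotated start, 6 of the 9 members with an entry held the motif (66.7%). Of 27025 genes with a promoter entry, 4159 held it (15.4%). The longer form with T before and A after the core was in 0 of the 9 members and in 1.06% of all genes. In the stretches below, each printed 5′ to 3′ on the gene's own strand, the capitals mark the core.

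Cnga2: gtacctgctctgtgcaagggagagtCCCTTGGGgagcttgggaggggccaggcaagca
Cngb1: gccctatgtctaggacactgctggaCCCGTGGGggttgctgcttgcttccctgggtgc
Ano2: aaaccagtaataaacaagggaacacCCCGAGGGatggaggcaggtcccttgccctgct
Gng13: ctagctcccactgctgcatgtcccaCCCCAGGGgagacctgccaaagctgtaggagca
Slc24a4: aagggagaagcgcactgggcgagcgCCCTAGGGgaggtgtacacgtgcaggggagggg

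They lie at chrX:71991758-71991815 on the plus strand for Cnga2, at chr8:95306682-95306739 on the minus strand for Cngb1, at chr6:125711096-125711153 on the plus strand for Ano2, at chr17:25717052-25717109 on the plus strand for Gng13 and at chr12:102128593-102128650 on the plus strand for Slc24a4. The core began 66 bases before the start in Cnga2, 129 in Cngb1, 67 before one of 3 starts in Ano2, 95 in Gng13 and 109 in Slc24a4. In Gng13 a second core overlapped the one shown, and in Cnga4 the core began 24 bases after the start. Adcy3, Gnb1 and Pde1c had no core in these windows. For Pde1c, on the minus strand, the windows lay between 56362343 and 56369884, inside the span given below and not at its end, 56652510. For Cnga4 the window ran from 105404318 to 105404617, while its span begins at 105400024. The outer starts of these spans were thus not searched. A match describes the sequence, and binding was not measured. In GRCm38, Gnb1 spans chromosome 4 from 155491300 to 155559269, Adcy3 chromosome 12 from 4133116 to 4213525, Cnga4 chromosome 7 from 105400024 to 105408775 and Pde1c chromosome 6 from 56069798 to 56652510, while Gnal lies on chromosome 18 and has no entry in the promoter table.

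The first comparison asked how cascade RNA differed between OSN with added Mex3a and OSN with HyperTRIBE alone, both drivers on. All 10 genes had a lower mean in MexHT OSN, and 8 passed the test, none of them higher (limma, adjusted p under 0.05). In this comparison 16.8% of the 16067 genes tested were called lower. The 3 HT libraries lay above all 6 MexHT libraries for 8 genes, against 16.9% of all genes. The median difference of the members was -1.43 on the log2 scale, and that of all genes was 0.03.

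Among the G protein subunits, Gng13 fell. In HT OSN its level was 1453, 1291 and 1157 TPM, and in MexHT OSN it ran from 341 to 767 TPM with a median of 712 TPM. The groups did not overlap, and the log2 difference was -1.08 ± 0.25 (SE, limma adjusted p = 0.00728). Gnal, the alpha subunit, was 1753, 1660 and 1041 TPM in HT OSN and 152, 352, 638, 870, 945 and 996 TPM in MexHT OSN. The groups did not overlap, but the MexHT libraries were spread widely and the difference of -1.39 ± 0.54 did not pass the test (SE, limma adjusted p = 0.067). Gnb1, a beta subunit that many cell types use, differed by -0.47 ± 0.20 on the log2 scale and did not pass either (SE, limma adjusted p = 0.0906).

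Adcy3, the cyclase through which Golf raises cyclic AMP, had the largest difference of the 10. Its level was 1088, 991 and 693 TPM in HT OSN. In MexHT OSN it was 243, 195, 168, 134.5, 57.0 and 106 TPM for replicates 1 to 6. The highest MexHT library was thus far below the lowest HT library. The log2 difference was -2.72 ± 0.38, a 6.60-fold lower level (SE, limma adjusted p = 0.000765).

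All 3 channel subunits fell. Cnga2, the subunit without which the channel does not open, was 957, 882 and 516 TPM in HT OSN and 274 to 532 TPM in MexHT OSN, with a median of 442 TPM. The groups overlapped by HT replicate 3, and the log2 difference was -0.86 ± 0.24 (SE, limma adjusted p = 0.0179). Cnga4, a modulatory subunit, was 712, 748 and 427 TPM in HT OSN but 36.7 to 180 TPM in MexHT OSN, with a median of 134 TPM. It fell by 2.48 ± 0.44 on the log2 scale (SE, limma adjusted p = 0.00221). Cngb1, the other modulatory subunit, was 381, 368 and 250 TPM in HT OSN and 32.6 to 165 TPM in MexHT OSN, with a median of 115 TPM. It fell by 1.83 ± 0.44 (SE, limma adjusted p = 0.00976), and neither Cnga4 nor Cngb1 overlapped between the groups.

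Downstream of the channel, the 3 genes also fell with no overlap. Ano2, which carries the amplifying chloride current, was 283 to 426 TPM in HT OSN and 77.2 to 233 TPM in MexHT OSN, a log2 difference of -1.27 ± 0.32 (SE, limma adjusted p = 0.0118). Pde1c, which degrades cyclic AMP when calcium rises, was 102 to 172 TPM in HT OSN and 27.0 to 74.5 TPM in MexHT OSN. Its log2 difference was -1.48 ± 0.30 (SE, limma adjusted p = 0.0040). Slc24a4, which extrudes calcium in exchange for sodium, was 166 to 234 TPM in HT OSN and 23.0 to 85.7 TPM in MexHT OSN, a log2 difference of -2.09 ± 0.37 (SE, limma adjusted p = 0.00219).

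**Figure D2:**
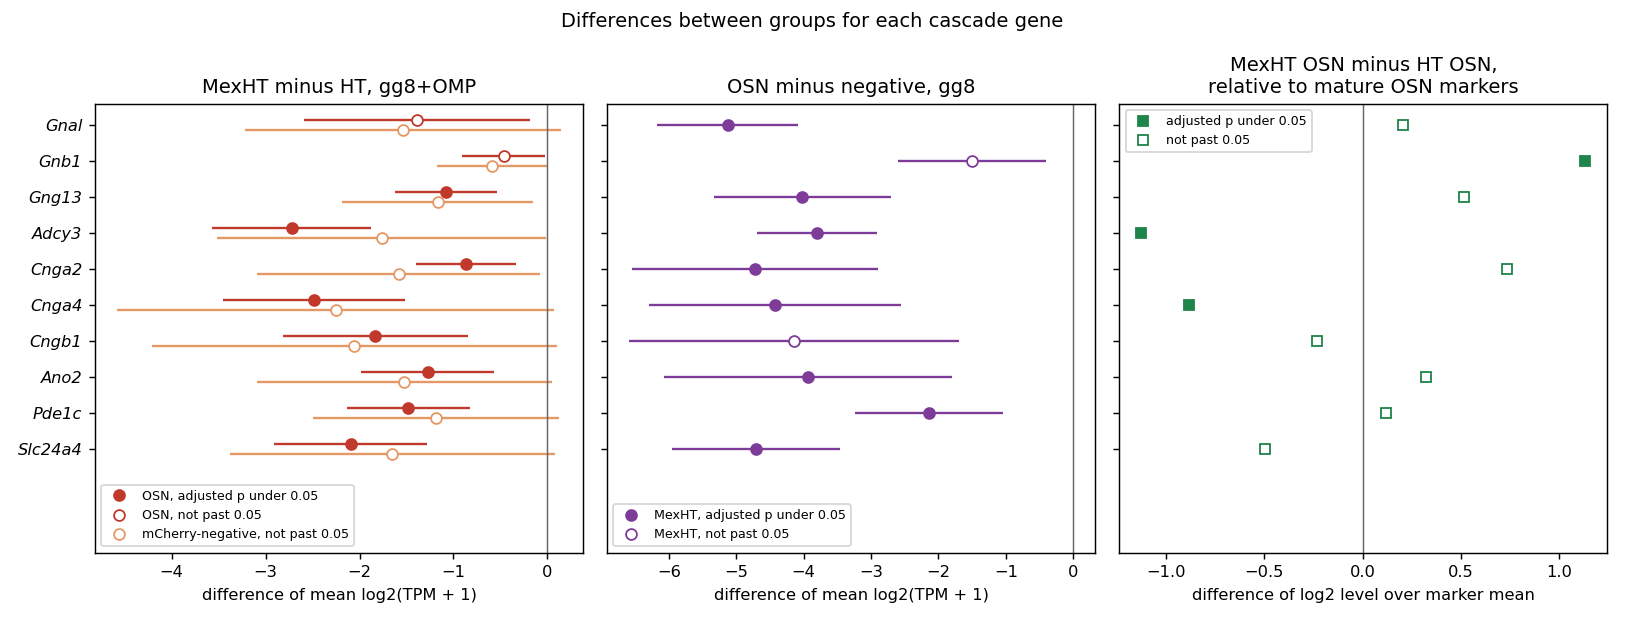
Left and middle, the difference of mean log2(TPM + 1) with its 95% confidence interval for each gene, MexHT minus HT in OSN and in negative cells (left) and OSN minus negative cells in gg8 mice (middle); filled points passed an adjusted p of 0.05. Right, the difference MexHT OSN minus HT OSN after the mean log2 level of the mature OSN markers was taken from each library. In OSN 8 genes passed on the left and 8 in the middle, and on the right Adcy3 and Cnga4 passed as lower and Gnb1 as higher.

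Ratios between members within a library are given as a description, with no test. Cnga4 stood at 0.81 of the Cnga2 level in HT OSN (range 0.743 to 0.848) and at 0.27 in MexHT OSN (0.134 to 0.368). Cngb1 stood at 0.43 of Cnga2 in HT OSN (0.398 to 0.484) and at 0.24 in MexHT OSN (0.119 to 0.336). Adcy3 stood at 0.63 of Gnal in HT OSN (0.597 to 0.665) and at 0.26 in MexHT OSN (0.177 to 0.374), and Gng13 at 0.66 of Gnb1 (0.624 to 0.688) against 0.43 (0.360 to 0.495). None of these ratios overlapped between MexHT and HT OSN. They were chosen with earlier results of these data known. The share of other gene pairs whose ratio does not overlap was not computed, so this has no reference. Cngb1 stood at 0.54 of Cnga4 in HT OSN (0.492 to 0.584) and at 0.85 in MexHT OSN (0.675 to 0.923). Against Omp, the ratios of Adcy3, Cnga4, Cngb1, Ano2, Pde1c and Slc24a4 were lower in MexHT OSN without overlap. That of Gnb1 was higher without overlap (0.986 to 1.39 against 0.766 to 0.965), and those of Gnal, Gng13 and Cnga2 overlapped. Omp itself differed by -0.88 on the log2 scale, which shifts every ratio to it upward in MexHT OSN. The share of all genes without overlap on this scale was not computed, so these counts have no reference. Adcy3 stood at 0.11 of Omp in MexHT OSN (0.0835 to 0.152) and at 0.39 in HT OSN (0.367 to 0.420), and Cnga2 at 0.33 in both (0.295 to 0.401 and 0.289 to 0.369). In the HT negative cells the ratio of Adcy3 to Gnal was 0.592 to 0.601, and in the MexHT negative cells it was 0.311 to 0.649.

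**Figure D3:**
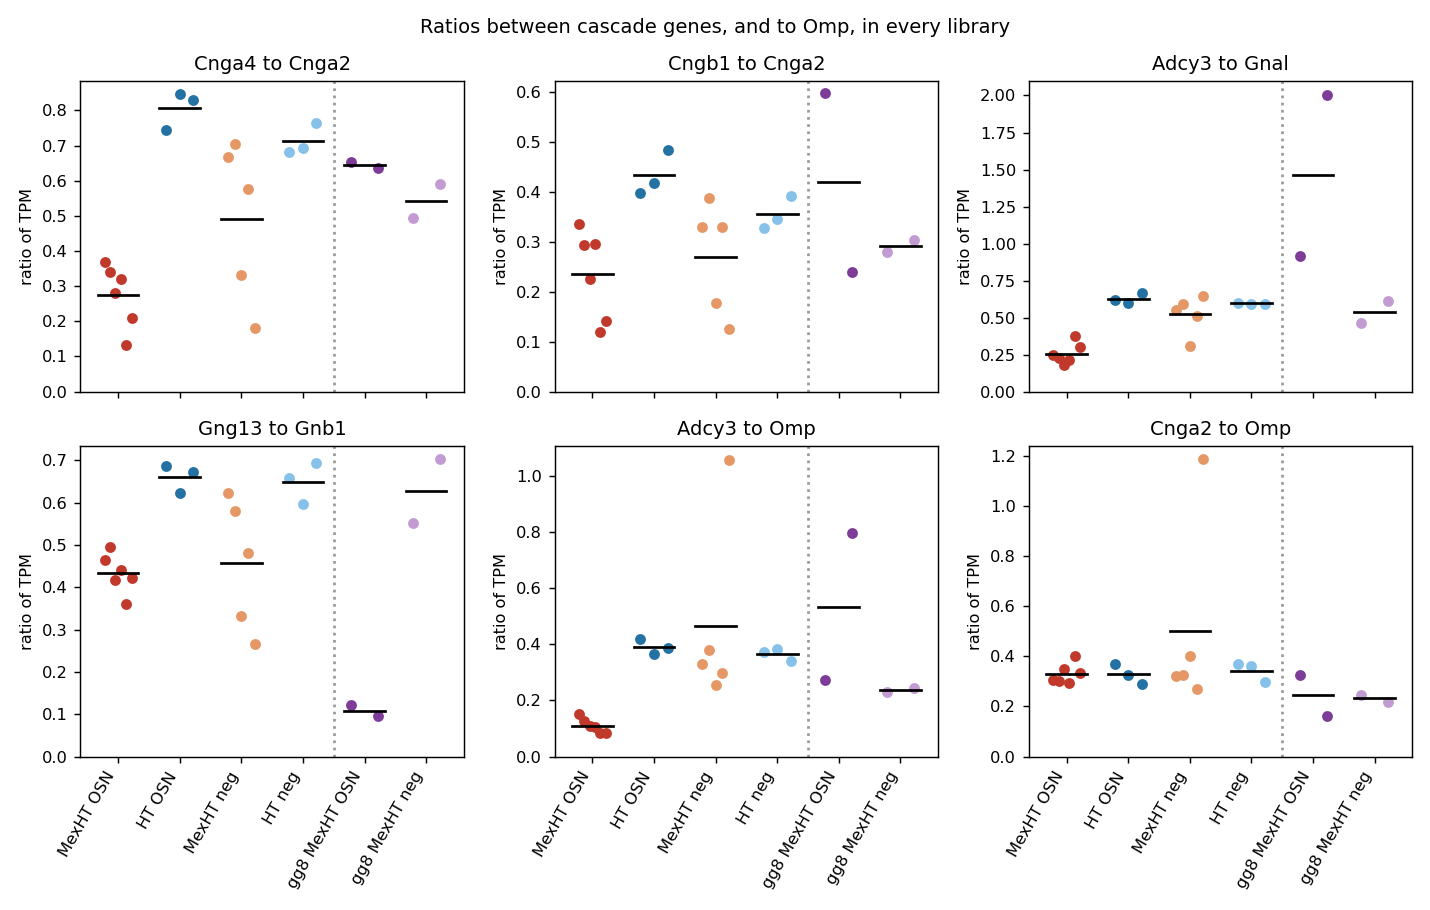
Ratios of TPM within each library, by group, on linear axes from 0; each dot is a library and each line the group's mean. The 6 MexHT OSN libraries lie below the 3 HT OSN libraries for Cnga4 to Cnga2, Cngb1 to Cnga2, Adcy3 to Gnal, Gng13 to Gnb1 and Adcy3 to Omp, and among them for Cnga2 to Omp. The ratios were chosen with earlier results of these data known.

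Markers of OSN stage moved with this comparison. All 7 mature OSN markers were called lower in MexHT OSN, with a summed level of 2742 to 6984 TPM against 11257 to 16097 TPM in HT OSN. Of the 9 immature OSN markers 7 were called higher, where 19.9% of all genes were, with a sum of 4015 to 4685 TPM against 2600 to 2682 TPM. Of 6 progenitor markers 2 were called higher (sums of 127 to 700 TPM in MexHT OSN against 75.4 to 111 TPM), and of 6 sustentacular markers 1 was called lower (192 to 640 TPM against 344 to 1509 TPM). Of 6 markers of tuft-like cells 4 were tested and 2 called lower (sums of 11.3 to 24.7 TPM against 41.1 to 50.7 TPM). All 6 macrophage and immune markers were called lower, with a sum of 233 to 449 TPM in MexHT OSN against 1015 to 4055 TPM in HT OSN. Their part in the difference of the cascade genes was not tested, but the cascade was also compared relative to the mean log2 level of the 7 mature markers, which hold no member. On that scale 2 members stayed lower: Adcy3 by -1.12 (limma adjusted p = 0.00866) and Cnga4 by -0.88 (limma adjusted p = 0.0334). Of all genes 0.131%, or 21, were called lower there, since the shift of scale moved the median of all genes to 1.63. Gnb1 was the 1 member called higher on it, as were 72.4% of all genes. The other 7 members did not pass, with values from -0.50 for Slc24a4 to 0.73 for Cnga2.

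The sex of the mice is not given, and the Xist RNA of female cells was uneven between the groups. Xist was 58.4 to 140 TPM in all MexHT OSN libraries, but 60.3 TPM in HT OSN replicate 2 and 0.126 and 0.14 TPM in the others. With the Xist level as a covariate 0 of the 10 members passed (limma adjusted p 0.0811 to 0.46; 329 of all genes passed), while their median difference was -1.48. In HT mouse 2, the 1 HT mouse with Xist, all 10 members stood above every MexHT library of the same fraction, where 28.1% of all genes tested did in OSN and 34.9% in negative cells. This mouse also had the highest HT negative level of all 10 members. No test could be made within one sex, so the construct and the Xist level cannot be told apart. Fitting all 4 gg8+OMP groups together left 5 members called (Adcy3, Slc24a4, Pde1c, Cnga4 and Gng13).

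In mCherry-negative cells, the same comparison of constructs gave lower means for all 10 members, but none passed the test. The log2 differences ran from -0.59 for Gnb1 to -2.25 for Cnga4, with a median of -1.56, with limma adjusted p from 0.22 to 0.273. No gene at all passed (0% of 16860 tested), nor did any with voom on recovered counts, while 3465 genes and 4 members (Gnb1, Gng13, Adcy3 and Cnga2) had an unadjusted p under 0.05. Adcy3 was 740, 828 and 372 TPM in HT negative libraries and 356, 543, 71.3, 267 and 49.7 TPM in MexHT negative libraries. MexHT mice 3 and 5 were low and mouse 2 was within the HT range. Mex3a was 57.8, 106, 144, 93.7 and 207 TPM in MexHT negative replicates 1 to 5. In HT negative libraries it was 29.3, 58.4 and 74.35 TPM. The part of Mex3a in these levels was not tested. Of the 7 mature OSN markers 0 passed either, with sums of 752 to 8492 TPM in MexHT and 6734 to 13430 TPM in HT negative libraries, and their part in the spread was not tested. No member separated the groups, where 5.07% of all genes lay lower without overlap.

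The construct differences in OSN and in negative cells were then compared with each other. The interaction of construct and fraction was called for 0 of 10 members, against 12.4% of 16785 genes, and no member had an unadjusted p under 0.05 or passed with voom on recovered counts. The most negative value was that of Adcy3, -0.96 (95% confidence interval -2.85 to 0.93, limma adjusted p = 0.525). The most positive was that of Cnga2, 0.72 (-0.81 to 2.25, limma adjusted p = 0.56). These intervals are wide and include 0. Over all genes, 1184 were called higher and 902 lower in the interaction, and 716 and 1057 after median-of-ratios scaling. All 6 macrophage and immune markers were called lower, as were 1 of 4 basal, 1 of 5 tested tuft-like and 1 of 4 guanylyl cyclase D neuron markers. Of 9 immature OSN markers 2 were called higher, and of 7 mature OSN markers 0 were called. The part of these markers' cells in the members' values was not tested.

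The comparison of sorted fractions within HT mice gave the same order for every member. In each of the 3 mice, all 10 genes were higher in OSN than in the negative cells of the same mouse. The median log2 difference of the members was 0.49 in mouse 1, 0.24 in mouse 2 and 0.84 in mouse 3. Cngb1 was 381, 368 and 250 TPM in OSN and 241, 269 and 127 TPM in negative cells, and its mean difference was 0.69 on the log2 scale. Without pairing the mice, 0 members passed the test (limma adjusted p 0.164 to 0.484), 0 had an unadjusted p under 0.05 and 0 passed with voom, where 2.18% of 17027 genes were called higher. Since the labels tie the fractions to one mouse, the paired fit is given too: it called 6 members higher, against 13.2% of all genes. They were Cngb1 (limma adjusted p = 0.0165), Cnga4 (0.0171), Slc24a4 (0.0304), Adcy3 (0.0379), Gnal (0.0431) and Ano2 (0.0463). The differences of all 10 members lay between 0.41 and 0.69. The negative cells also held connective tissue and neutrophil RNA: the markers summed to 7818 to 18346 TPM and 4991 to 11536 TPM there, against 82.2 to 316 TPM and 106 to 358 TPM in OSN. All 4 connective tissue, all 5 neutrophil and all 4 basal markers were called lower in OSN, as were 3 of 6 progenitor markers, while 2 of 6 macrophage and immune markers were called higher. Of 9 immature OSN markers 1 was called higher, and of 7 mature OSN markers 0 were called. Also called were 1 of 6 sustentacular and 1 of 6 tuft-like markers, both lower, and 1 of 4 ensheathing glia markers, higher. Without pairing, which these marker calls used, 1552 of the 17027 genes were called lower. Sums of basal markers were 138 to 190 TPM in negative cells and 10.7 to 17.1 TPM in OSN, and those of macrophage markers 844 to 2207 TPM and 1015 to 4055 TPM. Their part in the cascade differences was not tested. Only Gng13 had groups that did not overlap, where 22.9% of all genes lay higher without overlap.

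In MexHT mice with both drivers the fractions differed less evenly. Members higher in OSN numbered 7 of 10 in mouse 1, 1 in mouse 2, 10 in mouse 3, 6 in mouse 4 and 10 in mouse 5. Mice 3 and 5 are those whose negative cells had little Omp (279 and 46.9 TPM, against 892 to 1431 TPM in the others). Cnga2 was 490, 463, 532, 373, 274 and 420 TPM in OSN and 347, 467, 112, 239 and 55.7 TPM in negative cells, a log2 difference of 1.13 ± 0.45 without pairing (SE, limma adjusted p = 0.0431). Cnga2 and Gnb1 (0.54, limma adjusted p = 0.0254) were the 2 members called higher, where 35.8% of 16522 genes were. With the mouse as a block, 6 members were called higher, against 37.4% of all genes: Gnb1, Cnga2, Ano2, Gng13, Gnal and Cngb1. Connective tissue markers summed to 11046 to 23548 TPM in these negative cells and 124 to 241 TPM in OSN, and neutrophil markers to 9461 to 12243 TPM and 106 to 284 TPM, all 9 called lower in OSN. All 4 basal markers, 4 of 6 progenitor, 4 of 6 macrophage and immune and 4 of 5 tested tuft-like markers were also called lower, and 1 macrophage and immune marker higher. Of 9 immature OSN markers 7 were called higher, while of 7 mature OSN markers 0 were called. Of 4 ensheathing glia markers 1 was called higher, and of 6 sustentacular markers 1 was called lower. Of 4 markers of guanylyl cyclase D neurons 1 was called higher and 2 lower. Of the 16522 genes tested, 4558 were called lower. Their part in the cascade differences was not tested. No member separated the groups, where 23.4% of all genes lay higher without overlap.

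Adcy3 was the member with the lowest difference between the fractions of MexHT mice. In OSN it was 1.47 lower than in the negative cells of the same mouse on the log2 scale in mouse 2, and 1.22 higher in mouse 3. It was lower in OSN in 3 of 5 mice, and so were Cnga4 and Pde1c. The difference for Adcy3 was -0.39 (95% confidence interval -1.67 to 0.89, limma adjusted p = 0.579), which did not pass the test, nor with the block (adjusted p = 0.424). The 2 calls without the block are not firm. They came to 0 without negative replicate 3, negative replicate 5 or OSN replicate 3, to 1 without negative replicate 4 or OSN replicate 1, 2, 4 or 6, and to 0 after median-of-ratios scaling.

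**Figure D4:**
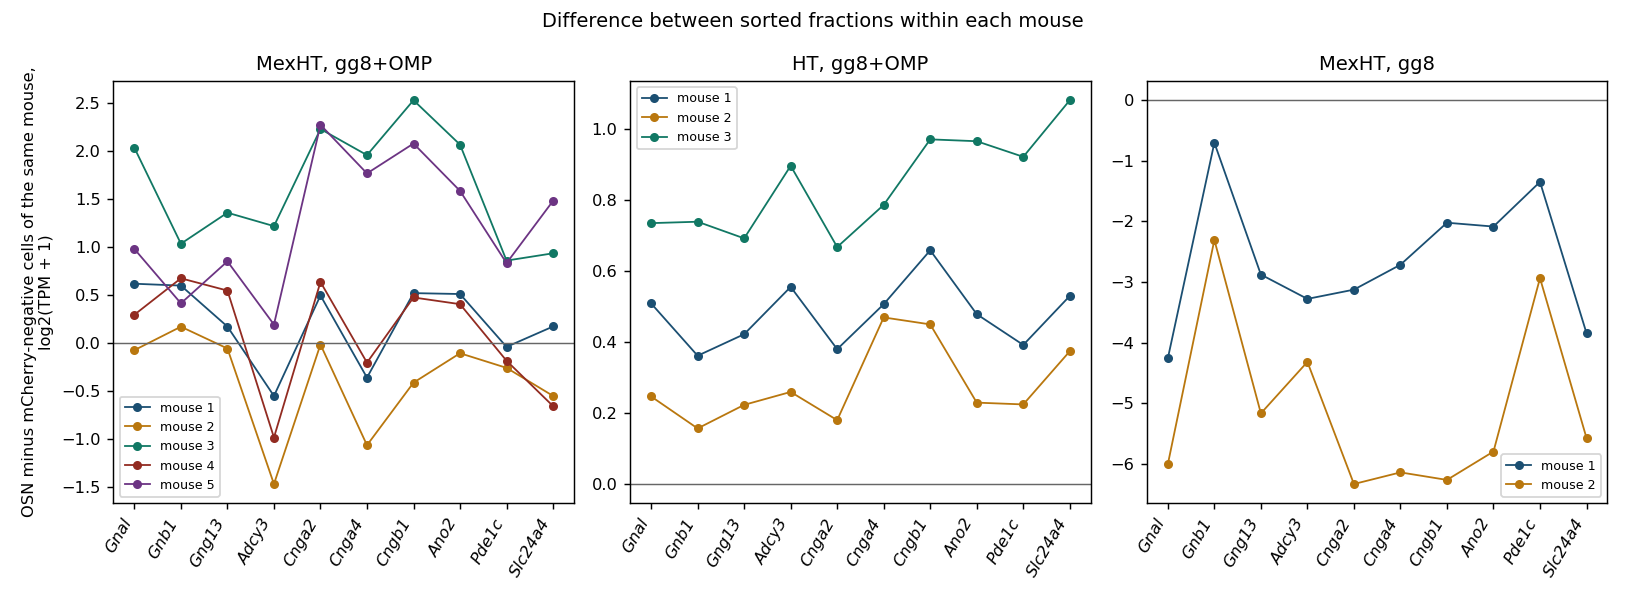
Difference in log2(TPM + 1) between OSN and mCherry-negative cells of the same mouse for each gene; lines join the values of 1 mouse, and the vertical axes of the 3 panels differ. All values are above 0 in the 3 HT mice, they cross 0 in MexHT mice 1, 2 and 4, and all are below 0 in the 2 gg8 mice.

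With gg8tTA alone the fractions stood in the opposite order: cascade genes were far lower in the sorted immature OSN than in the negative cells of the same mice. All 10 genes were lower in both mice without overlap, against 30.2% of 16490 genes. The test called 8 of them lower, against 7.20% of all genes, and 9 once mice were paired, against 7.99%. The median difference of the members was -4.08 on the log2 scale, and that of all genes was 0.09.

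Gnal had the largest difference, from 953 and 1434 TPM in negative cells to 48.9 and 21.4 TPM in OSN. This is a log2 difference of -5.13 ± 0.44, or 35.0-fold (SE, limma adjusted p = 0.00779). Cnga2 went from 474 and 779 TPM to 53.5 and 8.70 TPM (-4.73 ± 0.76, SE, limma adjusted p = 0.0266). Slc24a4 was 90.8 and 144 TPM in negative cells and 5.40 and 2.06 TPM in OSN, from 40 and 21 recovered counts (-4.71 ± 0.52, SE, limma adjusted p = 0.0135). In each case OSN replicate 2 was the lower library, as it was for all 10 genes. This library had the most counts of the 21 (15344179) but the fewest genes at 1 TPM or more. It had 13917 such genes, against 15010 to 18006 in the other libraries. The part of this in its low values was not tested.

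The remaining calls were Cnga4 (-4.43, limma adjusted p = 0.0299), Gng13 (-4.02, 0.0205), Ano2 (-3.94, 0.0469), Adcy3 (-3.80, 0.0106) and Pde1c (-2.14, 0.0419). Adcy3 was alike in both OSN libraries, at 44.8 and 42.9 TPM, where Cngb1 was 32.0 and 2.09 TPM. Cngb1 differed by -4.14, did not pass without pairing the mice (limma adjusted p = 0.057) and passed with the pairing (limma adjusted p = 0.0274). Gnb1 was 1037 and 423 TPM in OSN against 1686 and 2096 TPM in negative cells, and did not pass (-1.50, limma adjusted p = 0.0888). Gnb1 and Pde1c thus had the smallest differences. Gng13 was 0.095 and 0.122 of Gnb1 in gg8 OSN, and 0.553 and 0.703 of it in their negative cells.

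The gg8 calls rest on 2 mice. They came to 0 without negative replicate 1, negative replicate 2 or OSN replicate 2, and to 10 without OSN replicate 1; the lone library of a group was then taken to vary like the others. Mature OSN markers moved with them: their sum was 916 and 1414 TPM in OSN and 9535 and 16533 TPM in negative cells, and 5 of 7 were called lower. Immature markers summed to 4527 and 5482 TPM in OSN and 3362 and 4060 TPM in negative cells, and 1 of 9 was called higher (Gng8), against 1.12% of all genes. All 4 connective tissue markers (38.6 and 55.5 TPM in sum against 5192 and 5480 TPM) and all 5 neutrophil markers (12.1 and 41.4 TPM against 2061 and 2787 TPM) were called lower, as were 3 of 6 macrophage and immune, 2 of 6 progenitor, 2 of 6 tuft-like and 1 of 4 basal markers. The part of these cells in the cascade differences was not tested. Relative to the mature markers no member was called lower and 2 were called higher, Gnb1 by 2.41 and Pde1c by 1.77, where 93.4% of all genes were.

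Set side by side, the OSN of the 2 driver designs had different levels. The tables were scaled separately and their library names carry different dates. Driver, date and table thus cannot be told apart, and no test was made. Some genes differed between the tables in both fractions. The paralog Slc24a5 averaged 0.756 TPM in gg8 OSN and 0.203 TPM in gg8 negative cells, against 27.5 to 40.8 TPM in the gg8+OMP groups. Mppe1, which overlaps Gnal, averaged 12.7 and 23.9 TPM against 167 to 489 TPM. Whether the tables were counted alike was not tested. The labels give all 21 libraries the same library kit, while a vendor's name stands in the title of the gg8 table alone. For 8 of 10 members, both gg8 MexHT OSN libraries lay below all 6 gg8+OMP MexHT OSN libraries, as did 12.4% of the 15544 genes averaging 1 TPM or more over these 8 libraries. Gnal was 21.4 to 48.9 TPM with gg8tTA and 152 to 996 TPM with both drivers. The exceptions were Gnb1 (423 and 1037 TPM against 948 to 1792 TPM) and Pde1c (12.9 and 28.0 TPM against 27.0 to 74.5 TPM). Gng8 went the other way, at 664 and 1256 TPM against 311 to 403 TPM.

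Of 16 regulators and partners of the cascade, 15 were tested in MexHT against HT OSN, where 6 were called lower and 1 higher (16.8% and 19.9% of all genes). Ric8b, an exchange factor for Golf, was 279 to 547 TPM in HT OSN and 115 to 186 TPM in MexHT OSN (-1.45, limma adjusted p = 0.00142). Slc12a2, the cotransporter that loads OSN with the chloride released through Ano2, was 411 to 480 TPM and 115 to 193 TPM (-1.56, limma adjusted p = 0.00022). Stoml3 (-1.67), Gfy (-1.30), the cyclic AMP phosphodiesterase Pde4a (-1.16) and Omp (-0.88) were the others called lower, 3 of them (Stoml3, Gfy and Omp) also among the mature markers. Atp2b2, a plasma membrane calcium pump, was called higher, at 3.43 to 9.97 TPM against 1.09 to 2.78 TPM.

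Of 42 paralogs of the members, 35 were tested in that comparison. The test called 10 higher and 4 lower, where 19.9% of all genes were called higher and 16.8% lower, and their median difference was 0.13. These shares are not far from those of all genes, so the values below describe single genes. Gnas, the alpha subunit that most cells use in place of Gnal, was 34.0, 35.2 and 85.7 TPM in HT OSN and 107 to 166 TPM in MexHT OSN (1.39, limma adjusted p = 0.00316). Gng8 was 107 to 141 TPM and 311 to 403 TPM (1.53, limma adjusted p = 7.3e-05), and Gnb2 24.6 to 66.9 TPM and 82.5 to 209 TPM (1.77, limma adjusted p = 0.00703). Among the cyclases, Adcy1 was 0.73 to 3.06 TPM in HT OSN and 7.68 to 29.1 TPM in MexHT OSN (2.70, limma adjusted p = 0.00152), well under the level of Adcy3 in both. The 4 called lower were Slc24a2 (-1.86), Gngt2 (-1.73), Pde1b (-1.32) and Adcy5 (-0.92). No channel paralog was called: Cnga3 was 0.514 to 4.02 TPM across these libraries, and Cnga1 and Cngb3 were under the filter. In gg8 OSN against their negative cells, 1 paralog was called higher (Gng8, 2.10) and 1 lower (Ano1, -2.61).

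Gene levels of 3 members carry a limit of counting. The exons of Gnal overlap those of Mppe1, those of Gng13 overlap Chtf18 and those of Adcy3 overlap Cenpo, each on the opposite strand in the GENCODE annotation of the same build. The kit keeps strand, but whether the authors' counting used it is not given in the sources used here, so reads of these pairs may not have been told apart. Cenpo also fell in MexHT OSN, from 108 to 169 TPM in HT OSN to 17.8 to 46.2 TPM (-2.27, limma adjusted p = 0.000354). Chtf18 fell by 0.96 (limma adjusted p = 0.00418), and Mppe1 differed by -1.42 without passing (limma adjusted p = 0.0588). Cenpo stood at 0.156 to 0.16 of Adcy3 in HT OSN and 0.186 to 0.313 in MexHT OSN.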

How the data were processed

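RNA of sorted cells was measured in 21 libraries made with a stranded total RNA kit, per the labels' protocols. The authors deposited 2 tables of TPM per gene symbol, scaled separately, so tests were made within a table. The build is mm10, and FastQC, cutadapt, STAR and bedtools are named, per the submitters' processing notes; the counting program, annotation and use of strand are not given in the sources used here. Symbols that had turned into dates (27 per table, at most 0.221% of TPM) were left out. Within a gene, TPM values are multiples of what 1 count is worth. This gave whole counts for 23613 of 23614 genes (within 0.001 counts) in the gg8+OMP table and 22775 of 22808 (within 0.01) in the gg8 table, and so the depth.

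Levels were compared as log2(TPM + 1) with limma 3.58.1 in R 4.3.3 (empirical Bayes with a mean trend), for genes averaging 1 TPM or more over the libraries fitted. The test is two-sided, with Benjamini-Hochberg adjustment over all genes tested and a threshold of 0.05; folds are on the log2(TPM + 1) scale and understate changes of low genes. The interaction used all 4 gg8+OMP groups. The labels give OSN and negative cells of one replicate number the same mouse, so these are pairs; deviations of same-numbered libraries correlated at 0.18, 0.31 and 0.47 in HT mice, -0.11 to 0.42 in MexHT mice and 0.02 in gg8 mice. MexHT OSN replicate 6 has no negative library. The labels do not tie MexHT to HT mice by number; the correlations were 0.11, 0.13 and -0.23 in OSN and 0.34, 0.42 and 0.23 in negative cells. P-values measure the spread between these libraries.

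The members, the gene lists and the ratios were chosen with earlier results of these data known. Alternatives were other pseudocounts (0.1 and 5 TPM), no filter, median-of-ratios scaling, levels relative to mature OSN markers, a replicate block, all groups in one fit, the Xist level as a covariate and leaving out each library. Named genes are the members, genes of the fixed lists (1 of them is not reported here), Mex3a and the 5 genes most like the members; the genes overlapping members were added after their values were seen. The fits were tested on simulated data. Voom on the recovered counts (library totals) was added after the data were seen.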

Additional observations from a re-analysis of the deposited data

How the results depend on the processing

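The counts are of members called out of 10. For MexHT against HT OSN the 8 calls became 3 (1 higher, 2 lower) relative to the mature OSN markers, 5 with all 4 groups in one fit and 0 with Xist as a covariate (all genes 329 against 5907), and 6 to 9 when one library was left out. For MexHT OSN against their negative cells the 2 calls became 1 without the filter, 0 after median-of-ratios scaling, 0 relative to the mature markers and 1 with voom, which was chosen after seeing the data, and 0 to 2 without one library. For gg8 OSN the 8 calls, all lower, became 2, both higher, relative to the mature markers, and 0 to 10 without one library; a pseudocount of 0.1 gave 6 (all genes 646 against 1372). With the replicate block, pairing the fractions of each mouse, 6 members were called for MexHT and 6 for HT fractions (all genes 4967 against 1923, and 1055 with voom, of which 7.49% were higher against 19.3%). The block gave 9 for gg8 fractions and 0 for the interaction (all genes 3398 against 2086, and 0 relative to the mature markers). Between constructs the block joined different mice by replicate number alone, which the labels do not tie, so it is no pairing. It gave 7 for MexHT against HT OSN and 0 for MexHT against HT negative cells.

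Relative to the mature markers, which moves the median of all genes, log2 differences changed sign for 6 members in MexHT against HT OSN, 8 in MexHT against HT negative cells, 6 in MexHT fractions, 4 in HT fractions, 3 in gg8 fractions and 5 in the interaction. Those called on either scale follow. In MexHT against HT OSN they were 1.13 for Gnb1, 0.52 for Gng13, 0.73 for Cnga2, 0.33 for Ano2 and 0.12 for Pde1c. In MexHT OSN against negative cells Gnb1 was -0.23, and in gg8 OSN they were 2.41 for Gnb1, 0.11 for Adcy3 and 1.77 for Pde1c. Of 1030 member values under an alternative, 891 kept direction and side of the threshold, 66 lost and 16 gained a call, 9 reversed and 48 changed sign with no call on either side. The cause was not tested. Every member was above 3 counts in every library, and several groups hold only 2 or 3 mice.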

Other observations

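The level of the genes that overlap members on the opposite strand, relative to the member, was low in the 2 gg8 negative libraries; the overlaps were looked at after the values were seen. Cenpo was 0.156 to 0.328 of Adcy3 over the 17 libraries with both drivers and 0.209 in both gg8 OSN libraries, but 0.00681 and 0.0208 of it in the gg8 negative libraries. Mppe1 was 0.293 to 0.638 of Gnal with both drivers, 0.225 and 0.423 in gg8 OSN, and 0.0152 and 0.0273 in gg8 negative cells. Chtf18 was 0.0216 to 0.13 of Gng13 with both drivers, 0.0778 and 0.291 in gg8 OSN, and 0.00594 and 0.0178 in gg8 negative cells. The levels of Mppe1 and Cenpo themselves were low in both gg8 fractions. Mppe1 was at most 25.96 TPM in gg8 libraries and at least 48.8 TPM with both drivers. Cenpo was at most 9.36 TPM and at least 16.3 TPM. Chtf18 overlapped, at 8.75 to 16.6 TPM against 14.5 to 48.1 TPM. The low ratios in gg8 negative cells thus do not set that fraction apart by the level of Mppe1 or Cenpo. What sets these ratios, and whether the tables were counted alike, was not tested.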
